A study of Mus musculus with 8 samples.

Results

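The dual-specificity MAP kinase phosphatases described here are 7 genes, Dusp1, Dusp2, Dusp4, Dusp5, Dusp6, Dusp10 and Dusp16, taken by symbol out of 21080 genes in the tables. All 7 had a row at both times and all 7 passed the filter on low coverage in every comparison. The RNA came from BMDMs, macrophages that were derived from bone marrow in culture with the growth factor M-CSF. The series held 8 samples in 4 groups of 2: WT at 0 h, Nudt21-cKO at 0 h, WT after IFNγ/LPS for 4 h and Nudt21-cKO after IFNγ/LPS for 4 h. The cKO mice were Nudt21 fl/fl with LysM-Cre, a Cre active in myeloid cells, and their floxed allele has loxP sites around exons 2 and 3 of Nudt21. The WT mice were LysM-Cre littermates matched for sex, so Cre was present in all 4 groups, and all mice were on the C57BL/6 background. The titles and the study's methods give the 0 h cells as unstimulated, although the treatment field of the labels names IFNγ/LPS for all 8 samples, and the 0 h group rests on the titles. The stimulated cells had been primed with IFNγ overnight before LPS was added for 4 h. Each sample pooled the BMDMs of 2 mice, which makes n = 2 pools per group, and the age of the mice is not given in the sources used here. A p-value here measures the spread between these pools only.

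MAP kinases (ERK, JNK and p38) are switched on when a MAP2K phosphorylates a threonine and a tyrosine in their activation loop, and the MAP kinase phosphatases switch them off by removing both phosphates. Many of the phosphatase genes are themselves induced by the signalling they end, so in macrophages exposed to LPS they act as negative feedback on p38, JNK and ERK and thereby on cytokine production. Dusp1, Dusp2, Dusp4 and Dusp5 encode inducible nuclear enzymes, Dusp6 encodes a cytoplasmic enzyme that prefers ERK, and Dusp10 and Dusp16 encode enzymes that act mainly on p38 and JNK. Nudt21 is a subunit of a cleavage and polyadenylation complex that binds UGUA in the 3'UTR and favours distal polyadenylation sites.

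Each deposited value is a gene's read coverage averaged over its bases. They were divided by a size factor per sample (median of ratios over 12898 genes above 0 in all 8 samples), so every level below is scaled coverage per base and can be compared between genes of different length. The sum of coverage over all genes ranged from 14950347 to 17954882 per sample, and the factors were 1.36 to 1.53 at 0 h and 0.596 to 0.783 at 4 h. The scaling matters for the response to IFNγ/LPS, because the median gene had a log2 fold change of -0.19 in WT and -0.15 in cKO after scaling and of -1.27 and -1.05 on the deposited scale. Nudt21 stood at 525 and 470.4 in the WT pools against 111 and 112 in the cKO pools at 0 h, and at 917 and 849 against 183 and 147 at 4 h. The cKO pools lay below the WT pools at both times. Nudt21 was lower in cKO by a log2 fold change of -2.15 at 0 h (SE 0.10, adjusted p = 0.0375, limma) and of -2.43 at 4 h (SE 0.16, adjusted p = 0.0437, limma). All 8 macrophage markers examined were detected in every group, with a summed level of 86660 to 109200. Neutrophil and granulocyte precursor markers summed to 17510 to 32930, mostly from S100a8, S100a9 and Ngp, while Ly6g was at most 7.37 in deposited coverage. Dendritic, lymphocyte, mast cell, stromal and erythroid lists each summed to at most 158. In these bulk samples fewer cells of a type and less RNA per cell cannot be told apart.

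The genes lie on 7 chromosomes of GRCm38 (RefSeq positions). Dusp1 is at chr17:26505591-26508472 on the minus strand, Dusp2 at chr2:127336159-127338377 on the plus strand and Dusp4 at chr8:34807610-34819894 on the plus strand. Dusp5 is at chr19:53529145-53541809 and Dusp6 at chr10:99263231-99267489, both on the plus strand. Dusp10 is at chr1:184034381-184075636 on the plus strand and Dusp16 at chr6:134715468-134807063 on the minus strand. Within these RefSeq spans, GENCODE M21 has a gene on the opposite strand at Dusp5 and at Dusp16 (Gm36328, by 947 bases). The sources used here do not state that strand was used in counting, so reads from stretches such a pair shares cannot be told apart. Longer GENCODE models of Dusp1 and Dusp10 also meet opposite-strand genes, which lie outside the RefSeq spans of both.

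Because Nudt21 recognises UGUA, the 3'UTR of the longest coding transcript of each gene was searched on the coding strand for TGTA, and also for ATTTA, the core of AU-rich elements. In all 7 genes the stop codon lay in the last exon. Among 13297 genes with a 3'UTR, 88.65% held TGTA and 68.27% held ATTTA, with medians of 5 and 1 matches in a median length of 1087 bases. The members spanned a wide range around these medians. The 3'UTR of Dusp16 held 17 TGTA in 2411 bases, that of Dusp6 held 13 in 1189 bases, that of Dusp10 held 7 in 1113 bases and that of Dusp1 held 6 in 690 bases. The 3'UTR of Dusp5 held 2 TGTA in 1109 bases, that of Dusp2 held 1 in 581 bases and that of Dusp4 held 0 in 1111 bases. ATTTA was found 4 times in Dusp1 and in Dusp2, 3 times in Dusp10 and Dusp16, 2 times in Dusp4 and 1 time in Dusp5 and Dusp6. The TGTA nearest the annotated 3' end is shown for the genes that have it and an ATTTA for Dusp4, with the motif in capitals and the base of the 3'UTR where it starts. A match is a description of the sequence and does not show that Nudt21 binds there.
Dusp6, base 1147, chr10:99267433-99267462, plus strand: tttattataagaaTGTAaaaccttaaatta
Dusp10, base 1064, chr1:184075574-184075603, plus strand: tttttgttgatggTGTAagaatttattttc
Dusp1, base 577, chr17:26505687-26505716, minus strand: agttatcgacagtTGTAtgtttgtttattt
Dusp2, base 412, chr2:127338194-127338223, plus strand: gtgggcatctcgcTGTAattggtgctgaaa
Dusp5, base 246, chr19:53541555-53541584, plus strand: acgtgctgactgcTGTActtccggaacccc
Dusp16, base 2408, chr6:134715473-134715502, minus strand: aaataaaatcagaactggtacctattTGTA
Dusp4, base 275, chr8:34819046-34819075, plus strand: ttgcaggtagaaATTTAcctcattattatt

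Promoter windows from RefSeq (GRCm38.p6) were matched for 6 of the 7 genes, Dusp4 having no row. Each window was searched on both strands for the cyclic AMP response element TGACGTCA and its shorter core TGACG, for the AP-1 element TGANTCA, for the kappaB motif and for the CArG box that serum response factor binds. Dusp1 held the full TGACGTCA, which 1.79% of 32851 promoter windows and 2.81% of the 14977 windows of expressed genes (those that passed the coverage filter) hold, at 143 to 136 bases before the start. Dusp5 held 2 adjoining CArG boxes, and 1.63% of all windows and 1.33% of those of expressed genes hold at least 1. The core TGACG, found in 20.8% of all windows and 28.9% of those of expressed genes, occurred in Dusp1, Dusp2, Dusp5 and Dusp16, and in Dusp1 2 of its 3 matches lie inside the full element. The AP-1 element (7.81% of all windows, 5.9% of those of expressed genes) and the kappaB motif (8.46% and 10.3%) gave 0 matches in the 6 windows, which says only that these letters are not in these stretches. The windows with the response element and the CArG boxes are shown with the matches in capitals.
Dusp1, chr17:26508597-26508626, minus strand: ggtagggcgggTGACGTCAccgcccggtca
Dusp5, upstream box, chr19:53529053-53529082, plus strand: ggggaaatacCCATATTTGGccttatatgg
Dusp5, downstream box, chr19:53529063-53529092, plus strand: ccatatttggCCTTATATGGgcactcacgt

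At 0 h, the transcripts of the 7 genes were dominated by Dusp1 in both genotypes. In WT, Dusp1 made up 43.2% of their summed coverage, Dusp6 25.5%, Dusp4 11.6%, Dusp2 7.64%, Dusp16 6.55%, Dusp5 3.46% and Dusp10 1.99% (means of 2 samples). In cKO, Dusp1 made up 40.6% and the second place passed from Dusp6 to Dusp4, with 24.8% for Dusp4 and 15.2% for Dusp6. The 7 genes together took 0.0122% to 0.0144% of all coverage per sample at 0 h and 0.117% to 0.137% at 4 h. After IFNγ/LPS, Dusp2 was the most abundant of the 7, with 48.8% in WT and 57.6% in cKO. It ranked 300 of 14512 genes in WT and 193 of 14918 in cKO, among genes with mean deposited coverage of at least 0.5 in the group. Dusp1 came second with 31.6% and 21.6%, while Dusp6 dropped to 0.193% in WT and 0.232% in cKO. The shares do not depend on a scaling by 1 factor per sample.

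**Figure D1:**
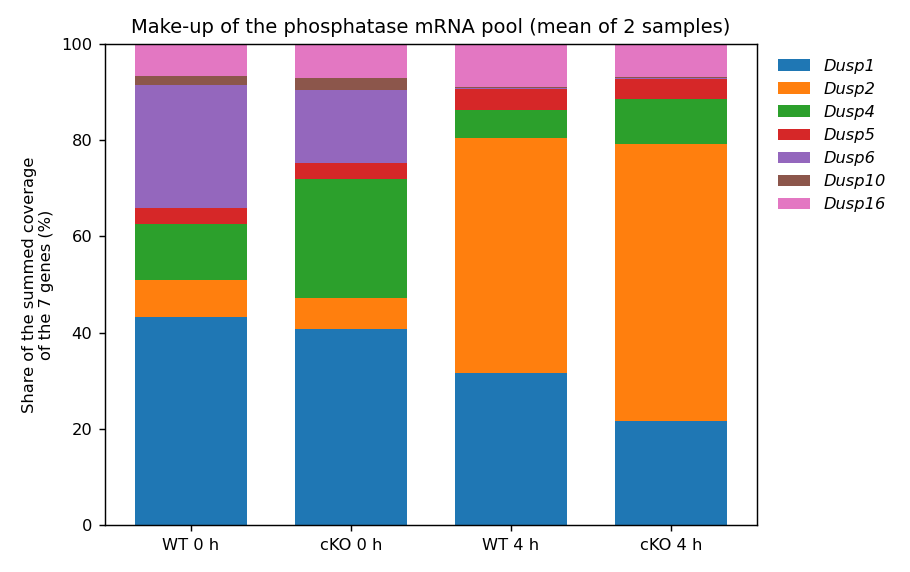
Share of each gene in the summed coverage of the 7 MAP kinase phosphatases (%, linear axis from 0 to 100), as the mean of 2 samples in each of the 4 groups. Dusp1 and Dusp6 fill most of the WT 0 h bar, Dusp4 takes 24.8% of the cKO 0 h bar, and Dusp2 fills 48.8% and 57.6% of the bars at 4 h.

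The response to IFNγ/LPS was compared first, 4 h against 0 h within each genotype. Dusp1, Dusp2, Dusp4, Dusp5 and Dusp16 rose and Dusp6 fell in both genotypes, and Dusp10 did not pass the test in either. A gene was called when its fold change was above 1.5 with an unadjusted limma p under 0.05, which takes the fold and p thresholds of the study with the test and scaling chosen here. By this rule 5 of 7 members were called higher in WT and 5 of 7 in cKO, beside 25.8% of all genes tested in WT and 25.8% in cKO, and 1 of 7 was called lower in each, beside 28.6% and 28.9%. The same 6 genes had an adjusted p under 0.05 in each genotype, beside 50.1% of all genes in WT and 60.7% in cKO, and the direction of these 6 was the same on the deposited scale and under every other scaling tried. The median log2 fold change of the 7 was 3.83 in WT and 3.30 in cKO, against medians of -0.19 and -0.15 over all genes.

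Dusp2, an inducible nuclear phosphatase of blood cells, had the largest response of the 7. In WT its level went from 124 and 101 at 0 h to 15876 and 12210.3 at 4 h, and in cKO from 135 and 79.3 to 17203 and 18501. No 4 h sample came near a 0 h sample, and the 2 cKO samples at 0 h spanned both WT samples. The log2 fold change was 6.96 in WT (SE 0.22, adjusted p = 0.00216, limma; 124-fold) and 7.43 in cKO (SE 0.33, adjusted p = 0.00207, limma; 172-fold), and on the deposited scale it was 5.86 and 6.51.

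Dusp1, the phosphatase that restrains p38 and JNK during the LPS response, was already well covered at 0 h. In WT it went from 671 and 600.1 to 9333 and 8690.1, and in cKO from 659 and 689.9 to 7127 and 6223. The genotypes overlapped at 0 h and were apart at 4 h, with cKO below WT. The rise was 3.83 on the log2 scale in WT (SE 0.14, adjusted p = 0.00241, limma) and 3.30 in cKO (SE 0.11, adjusted p = 0.00137, limma), or 2.72 and 2.38 on the deposited scale.

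Dusp4, a nuclear phosphatase of ERK and JNK, went from 169.5 and 170.2 to 2072 and 1404 in WT and from 381 and 440.0 to 2652 and 3151 in cKO. The cKO samples lay above the WT samples at both times. Its log2 fold change on stimulation was 3.33 in WT (SE 0.25, adjusted p = 0.00574, limma) and 2.82 in cKO (SE 0.15, adjusted p = 0.0026, limma), and 2.22 and 1.90 on the deposited scale.

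Dusp5, a nuclear phosphatase specific for ERK whose promoter window held both CArG boxes, went from 55.6 and 46.4 to 1469 and 1008 in WT. In cKO it went from 55.5 and 56.4 to 1226 and 1340.0, so the genotypes overlapped at both times. The log2 fold change was 4.58 in WT (SE 0.27, adjusted p = 0.00407, limma) and 4.52 in cKO (SE 0.08, adjusted p = 0.000902, limma), and 3.48 and 3.60 on the deposited scale.

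Dusp16, a phosphatase of JNK and p38, went from 86.1 and 105 to 2836 and 2338 in WT and from 124 and 113 to 2233 and 2028 in cKO. The cKO samples were above WT at 0 h and below WT at 4 h, without overlap at either time. Its log2 fold change was 4.75 in WT (SE 0.20, adjusted p = 0.0028, limma) and 4.17 in cKO (SE 0.10, adjusted p = 0.00107, limma), and 3.65 and 3.25 on the deposited scale.

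Dusp6, the cytoplasmic ERK phosphatase, moved the other way. It went from 387 and 362 at 0 h to 68.5 and 43.8 at 4 h in WT and from 261 and 244 to 77.0 and 66.6 in cKO. Every 0 h sample was above every 4 h sample, and cKO was below WT at 0 h and overlapped WT at 4 h. The log2 fold change was -2.77 in WT (SE 0.28, adjusted p = 0.00932, limma) and -1.82 in cKO (SE 0.11, adjusted p = 0.00341, limma), and -3.87 and -2.74 on the deposited scale.

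Dusp10, the other phosphatase of p38 and JNK, had the lowest coverage of the 7 in all 4 groups. Its WT pools read 24.2 and 33.8 at 0 h and 45.7 and 41.3 at 4 h, and its cKO pools 41.9 and 37.5 and then 50.1 and 36.0. The 2 WT samples at 0 h were below the other 6 samples, and the remaining 3 groups overlapped. Its log2 fold change was 0.60 in WT (SE 0.23, adjusted p = 0.12, limma) and 0.10 in cKO (SE 0.22, adjusted p = 0.714, limma) after scaling, but -0.50 and -0.82 on the deposited scale, so its direction depends on the scaling. It was called higher in WT under quantile normalization (1.04), in the fit over all 8 samples (0.60) and without WT replicate 2 of 0 h (0.84), and lower in cKO on the deposited scale (-0.82) and with equal total coverage (-0.86).

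**Figure D2:**
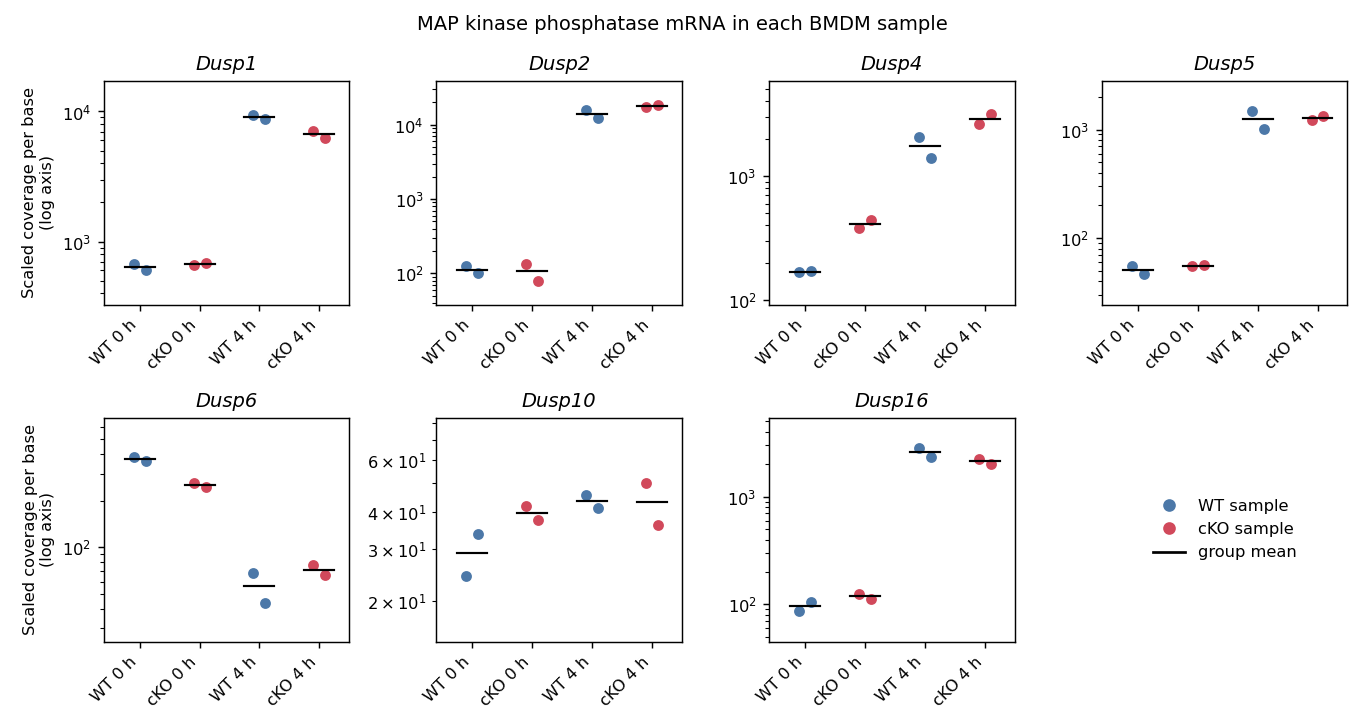
Scaled coverage per base of each of the 7 genes (log axis, its own range in each panel) in the 8 BMDM samples, with WT in blue, cKO in red and a bar at the mean of the 2 samples. Dusp4 is higher in cKO at both times, Dusp6 is lower in cKO at 0 h, and 5 of the genes are far higher at 4 h than at 0 h.

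**Figure D3:**
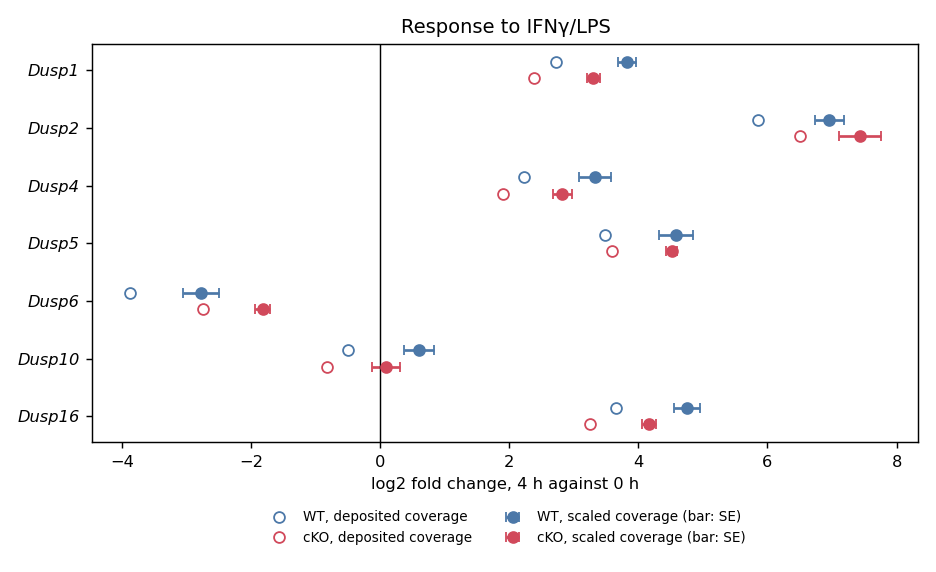
Log2 fold change at 4 h against 0 h for each gene (horizontal axis), in WT (blue) and cKO (red), with bars of 1 standard error. Filled points are scaled coverage and open points deposited coverage, which lie further left for every gene and on the other side of 0 for Dusp10.

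The effect of Nudt21 loss in unstimulated BMDMs was then compared, cKO against WT at 0 h. Dusp4 was the called member and was higher in cKO, at 411 ± 41.4 (SD, n = 2) against 169.9 ± 0.491 (SD, n = 2). Its log2 fold change was 1.27 (SE 0.12, adjusted p = 0.0732, limma), a 2.41-fold difference, and it was 1.38 on the deposited scale. The call was kept when any of the 4 samples was left out, with log2 fold changes of 1.17 to 1.37. Hence 1 of 7 members was called, where 14.3% of 16251 genes were called in either direction and 7.01% in the higher direction. By an adjusted p under 0.05 the count was 0 of 7, beside 1.06% of all genes. Dusp4 is also the gene among the 7 with no TGTA in the annotated 3'UTR, and a link of this to its level was not tested.

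Dusp6 was lower in cKO at 0 h, 253 ± 11.9 (SD, n = 2) against 375 ± 17.5 (SD, n = 2), with a log2 fold change of -0.57 (SE 0.10, adjusted p = 0.119, limma). Its fold difference of 1.48 was just under the 1.5 required, so it was not called. It was called under quantile normalization, under scaling by genes with coverage of at least 100 and without WT replicate 2 or cKO replicate 3, with log2 fold changes of -0.60 to -0.68, while the deposited scale gave -0.46. The ratio of Dusp6 to Dusp4 within a sample, which a scaling by 1 factor per sample does not change, was 2.28 and 2.13 for the WT pools against 0.684 and 0.555 for the cKO pools at 0 h. The ratios of the genotypes did not overlap, and the gene with more coverage differed between them.

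The other 5 genes did not pass the test at 0 h. Both cKO pools were above the WT pools for Dusp10 and Dusp16, with log2 fold changes of 0.47 (adjusted p = 0.335, limma) and 0.31 (adjusted p = 0.35, limma). Without WT replicate 2, Dusp10 was called at 0.71. In all, 3 of 7 members lay above WT without overlap and 1 of 7 below, beside 27.7% and 29.8% of all genes. Dusp5 had 0.14, Dusp1 0.09 and Dusp2 -0.11, each with overlapping samples. At this time 3 of 8 macrophage markers were called lower in cKO (Adgre1 -0.77, Csf1r -0.67, Fcgr1 -1.01). The uncalled Itgam (-0.35), Cd14 (-0.26) and Mertk (-0.16) also lay below WT without overlap. Cd68 (0.58) and Lyz2 (0.67), uncalled as well, lay above WT without overlap. Thus 6 of 8 markers lay below WT without overlap and 2 of 8 above, beside 29.8% and 27.7% of all genes. On the deposited scale 1 marker was called higher and 2 lower, with the call of Csf1r lost. The neutrophil and granulocyte precursor list summed to 19560 to 24020 in cKO and 17510 to 19460 in WT with 0 of 8 called. In the stromal list, 2 of 5 genes tested were called higher in cKO (Col3a1 0.95, Pdgfra 1.04), also under each of the 4 other scalings. Both rest on little coverage, with mean levels in WT and cKO of 4.84 and 9.52 for Col3a1 and of 0.858 and 1.86 for Pdgfra. The better covered Col1a1 (47.7 and 54.6) and Col1a2 (46.3 and 59.7) were not called. The sums of the stromal list overlapped (64.05 to 141.5 in WT, 108.9 to 144.8 in cKO). Whether these shifts have a part in the values of the phosphatases was not tested.

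In stimulated BMDMs at 4 h, 0 of 7 members were called, where 19.9% of 14950 genes were called (11.2% higher and 8.72% lower). By an adjusted p under 0.05 the count was also 0 of 7, beside 1.6% of all genes. At an unadjusted limma p under 0.05 without the fold requirement, 1 of 7 passed (Dusp1), beside 29.3% of all genes. Dusp2 and Dusp4 lay above WT in both cKO samples and Dusp1 and Dusp16 below, so 2 of 7 did not overlap in each direction, beside 32.5% higher and 31.4% lower over all genes. The median log2 fold change of the 7 was 0.07 and that of all genes 0.01.

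Dusp1 at 4 h was 6675 ± 639 in cKO and 9012 ± 455 in WT (SD, n = 2 each). The log2 fold change was -0.44 (SE 0.13, adjusted p = 0.154, limma), a fold difference of 1.35 that is below the required 1.5, and -0.14 on the deposited scale. Dusp4 was 2901 ± 353 in cKO and 1738 ± 472 in WT (SD, n = 2 each), with a log2 fold change of 0.76 (SE 0.26, adjusted p = 0.192, limma) and 1.06 on the deposited scale. Dusp4 missed the p threshold, and it passed under 7 other settings, among them the fit over all 8 samples, and without WT replicate 1. Leaving out 1 sample at a time gave 0.48 (without WT replicate 2) to 1.04 (without WT replicate 1). Dusp2 gave 0.36 on the log2 scale (SE 0.18, adjusted p = 0.304, limma) and, of the settings tried, was called only on the deposited scale, at 0.65. Without WT replicate 2 it was 0.17 and without WT replicate 1 0.55.

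The remaining genes were not called at 4 h either. Dusp6 gave 0.39 on the log2 scale (adjusted p = 0.446, limma) and 0.68 on the deposited scale, and Dusp5 gave 0.07 and 0.37. Leaving out WT replicate 2 gave 0.065 for Dusp6 and -0.20 for Dusp5, while leaving out WT replicate 1 gave 0.71 for Dusp6. Dusp16 had -0.27 (adjusted p = 0.338, limma) after scaling and 0.022 on the deposited scale, and Dusp10 had -0.03 and 0.26, so the direction of these 2 genes depends on the scaling. The WT replicate 1 sample was higher than the WT replicate 2 sample at 4 h for 7 of 7 members after scaling and for 5 of 7 on the deposited scale. At this time 1 of 8 macrophage markers was called higher in cKO (Cd68 0.77) and 2 lower (Adgre1 -0.76, Fcgr1 -0.59). On the deposited scale 2 were called higher and 0 lower, and the call of Fcgr1 was lost under each of the 4 other scalings. The neutrophil and granulocyte precursor sums overlapped (29180 to 32930 in cKO, 30220 to 32830 in WT) with Mpo called lower in cKO (-0.67), a call that was lost on the deposited scale and with equal total coverage. In the dendritic cell list Zbtb46 was called higher (1.24) and Xcr1 lower (-3.47). Of the stromal list, 0 of 5 genes tested were called, with a median log2 fold change of 1.04, and 1 was called higher on the deposited scale. Its sums overlapped (103.8 to 148.5 in cKO, 28.26 to 136.9 in WT). The part of these shifts in the values of the phosphatases was not tested.

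The balance between Dusp2 and Dusp1, the most abundant pair after stimulation, can be read within a sample. The ratio of Dusp2 to Dusp1 at 4 h was 1.70 and 1.41 for the WT pools against 2.41 and 2.97 for the cKO pools, without overlap. At 0 h the WT pools gave 0.185 and 0.168 and the cKO pools 0.204 and 0.115, which overlap. These ratios were chosen with the values known and are given as a description without a test.

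**Figure D4:**
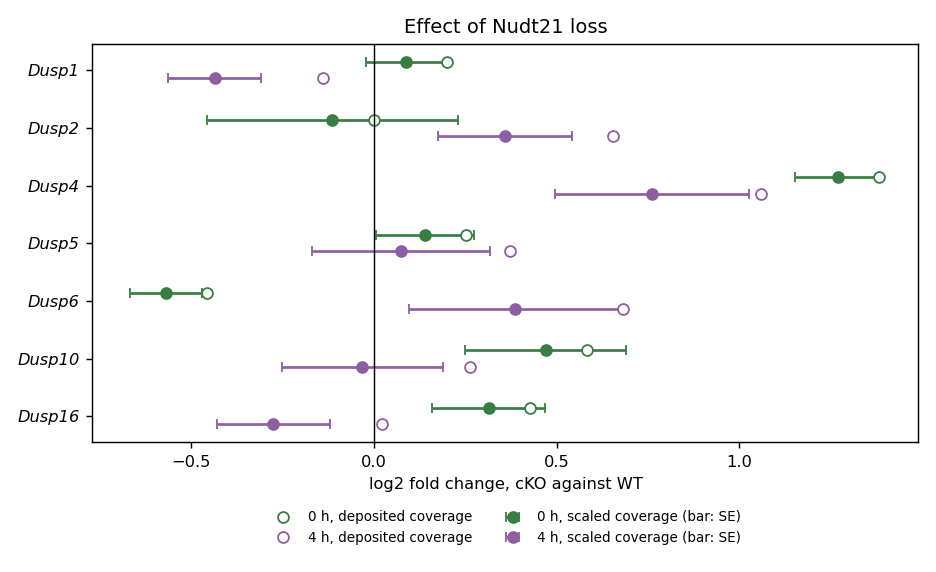
Log2 fold change of cKO against WT for each gene (horizontal axis), at 0 h (green) and 4 h (purple), with bars of 1 standard error. Filled points are scaled coverage and open points deposited coverage, and Dusp4 lies to the right of 0 at both times.

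A change of the genotype effect with time was tested by the interaction term of a fit to all 8 samples. By an adjusted p under 0.05, 0 of 7 members were called, where 2.8% of 16284 genes were. At an unadjusted limma p under 0.05, Dusp1, Dusp6 and Dusp16 passed, beside 22.1% of all genes, and with a fold change above 1.5 as well 2 of 7 did, Dusp6 and Dusp16, beside 15.9%. The genotype effect on Dusp6 was higher at 4 h than at 0 h by 0.95 (SE 0.32, adjusted p = 0.181, limma). That on Dusp16 was lower at 4 h by 0.59, with an interaction of -0.59 (SE 0.22, adjusted p = 0.219, limma), and that on Dusp1 had an interaction of -0.52 (SE 0.16, adjusted p = 0.158, limma). For Dusp4 it was -0.51 (SE 0.31, adjusted p = 0.402, limma), so the larger genotype difference of Dusp4 at 0 h was not shown to differ from that at 4 h. Dusp10 had -0.50, Dusp2 0.47 and Dusp5 -0.07, with adjusted p of 0.442, 0.559 and 0.925, and the value of Dusp5 was 0.12 on the deposited scale.

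Across the 8 samples, the genes with the most similar pattern to each member were found by the root mean square difference of log2 levels centred on each gene's mean, over 15272 genes with mean deposited coverage of at least 1. For Dusp5 these were Peli1 (0.112), Nfkbib (0.132) and Sod2 (0.134), and for Dusp16 Pvr (0.113), Plek (0.131) and Sp140 (0.133). For Dusp1 they were Sco1 (0.0832), Rbbp8 (0.110) and Zyx (0.111). Dusp2 was most like Phf11b (0.245), Zbp1 (0.251) and Gm48277 (0.269), the last of which is listed at 0 in all 4 samples at 0 h. Dusp6 was most like F8a (0.145), Smad6 (0.184) and Ankrd13d (0.206), and Dusp10 like Pcmtd1, Flna and Foxm1 (0.126 to 0.127). Dusp4, whose pattern includes the higher level in cKO at both times, was most like Ankrd33b (0.221), 1700058P15Rik (0.232) and Plk4 (0.234). Among the members themselves Dusp5 and Dusp16 were closest, at 0.225. The 8 samples form 2 times of 4, so these values mostly follow the response to stimulation.

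The rest of the pathway was read from lists of named genes. The other catalytically active MAP kinase phosphatases are Dusp7, Dusp8 and Dusp9. In WT, 0 of 3 were called higher and 2 of 3 lower with IFNγ/LPS (Dusp9 -2.88, Dusp7 -0.59), and Dusp8 (0.88, without overlap) was called higher under quantile normalization. In cKO, Dusp8 was called higher (2.35) and Dusp9 lower (-2.64). Between genotypes Dusp9, a cytoplasmic ERK phosphatase, stood at 33.9 and 37.2 in the cKO pools against 20.0 and 21.6 in the WT pools at 0 h, with a log2 fold change of 0.77 (adjusted p = 0.102, limma). Dusp8, a phosphatase of JNK and p38, stood at 115 and 154 in the cKO pools against 62.7 and 41.1 in the WT pools at 4 h, with a log2 fold change of 1.38 (adjusted p = 0.119, limma). Both pairs of groups were without overlap.

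Of 13 atypical dual-specificity phosphatases, which lack the MAP kinase binding domain, 11 were tested at 0 h and 10 at 4 h between genotypes. Styx, a pseudophosphatase, was lower in cKO at both times, with a log2 fold change of -1.13 at 0 h and -1.62 at 4 h (adjusted p = 0.0767 and 0.0636, limma). The WT pools had 226 and 253 against 112 and 106 in the cKO pools at 0 h, and 243 and 303 against 85.0 and 91.3 at 4 h, without overlap. Dusp11 was higher (0.86) and Dusp23 lower (-0.70) in cKO at 0 h, where 3 were called higher and 2 lower on the deposited scale, and Dusp14 (1.49) and Dusp3 (1.25) were higher at 4 h. On stimulation of WT cells 3 of 11 were called higher and 4 lower, among them Dusp3 (-2.32) and Dusp19 (-1.59), and on the deposited scale 1 was called higher and 7 lower. Dusp14 is listed at 0 in both WT samples at 0 h and Styxl1 in all 4 samples at 4 h, so no fold is given for their response.

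Among 9 MAP kinases, 0 were called between genotypes at 0 h, and 1 was called higher on the deposited scale and under quantile normalization. At 4 h, 2 of 8 tested were called higher in cKO, Mapk11 (p38 beta, 1.34) and Mapk7 (ERK5, 0.59), and 2 were called lower, among them Mapk13 (p38 delta, -0.92). The call of Mapk7 was lost under quantile normalization. On stimulation of WT cells, 3 of 9 rose and 3 fell, against 1 and 5 on the deposited scale and with equal total coverage, with Mapk13 at 3.04, Mapk14 (p38 alpha) at -1.85, Mapk7 at -1.56 and Mapk8 (JNK1) at 0.99, and the signs of Mapk8 (-0.11) and Mapk9 turned on the deposited scale.

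The MAP2K and MAP3K genes, which lie upstream, numbered 14, with 0 called at 0 h and 4 called lower in cKO at 4 h. These were Map2k6 (-2.12), a kinase of p38, Map3k5 (-0.96), Map3k14 (-0.69) and Map3k8 (-0.61), the kinase that carries LPS signals to ERK. Map2k6 stood at 8.88 and 12.3 in the WT pools and at 1.84 and 2.96 in the cKO pools, so its value rests on little coverage. The call of Map3k8 was lost under each of the 4 other scalings and that of Map3k14 on the deposited scale and with equal total coverage, and on the deposited scale 3 were called higher and 2 lower. On stimulation of WT cells, 5 of 14 rose and 2 fell, with Map3k8 at 3.24, Map3k5 at 2.06, Map2k4 at 1.88 and Map3k1 at -2.12, while on the deposited scale 5 were called higher and 9 lower.

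Of 12 MAP kinase effectors, 1 was called at 0 h, Rps6ka3, higher in cKO (0.64), and 0 at 4 h, where 2 were called higher on the deposited scale. In WT cells 5 of 12 rose with IFNγ/LPS and 5 fell, against 3 and 5 on the deposited scale. Zfp36, the mRNA decay factor under p38 control, had 3.62 and Mapkapk2, a kinase activated by p38, had 3.11, while Zfp36l2 had -3.44 and Mknk2 -2.97.

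The list of ERK feedback regulators and ERK targets held 14 genes. At 0 h, 3 were called lower in cKO (Spry1 -1.81, Etv5 -1.12, Ccnd1 -0.87) and 1 higher (Rasa2 0.68), and the same 4 were called on the deposited scale. Etv5, a transcription factor gene induced by ERK, stood at 279 in each WT pool and at 145 and 113 in the cKO pools at 0 h, and Ccnd1, the cyclin D1 gene, at 391 and 429 against 238 and 210.2. Both genes were lower in both cKO samples. Of the uncalled genes, Spry2 (-0.69), Spred1 (-0.51) and Spred3 (-0.33) also lay below WT without overlap. Ier3 (0.60) and the little-covered Etv4 (2.57) lay above WT without overlap, while Egr1 (0.21) and Phlda1 (-0.012) had overlapping samples. Of the 14 genes, 6 lay below WT without overlap and 3 above, beside 29.8% and 27.7% of all genes. Spry1 was below 3.34 in all 4 samples at 0 h, so its value rests on little coverage. At 4 h, 3 of 12 tested were called higher in cKO (Spry1 1.84, Egr1 1.23 and, named after its value was seen, Ier3 0.73) and 2 lower (Spred3 -1.38, Spry2 -1.11). The call of Spry2 was lost on the deposited scale, where 4 were called higher and 1 lower, and those of Spry1 and Spry2 under quantile normalization, where 2 were called higher and 1 lower. On stimulation of WT cells 8 of 13 rose and 3 fell, against 4 and 3 on the deposited scale, with Phlda1 at 5.85, Ier3 at 3.71, Spred1 at 3.15 and Spry1 at 2.47. Medians of the pathway lists for the response in WT were taken without genes listed at 0 in a group. They were -0.59 for the other MAP kinase phosphatases, -0.72 for the atypical phosphatases and 0.08 for the MAP kinases. For the MAP2K and MAP3K genes the median was 0.03, for the effectors 0.41 and for the ERK list 1.18, against 3.83 for the 7 genes. On the deposited scale the medians over all genes tested were -1.69, -1.82, -1.04, -1.07, -0.70 and -0.026 in the same order, against 2.72 for the 7 genes. The sign turned for the MAP kinases, the MAP2K and MAP3K genes, the effectors and the ERK list.

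**Figure D5:**
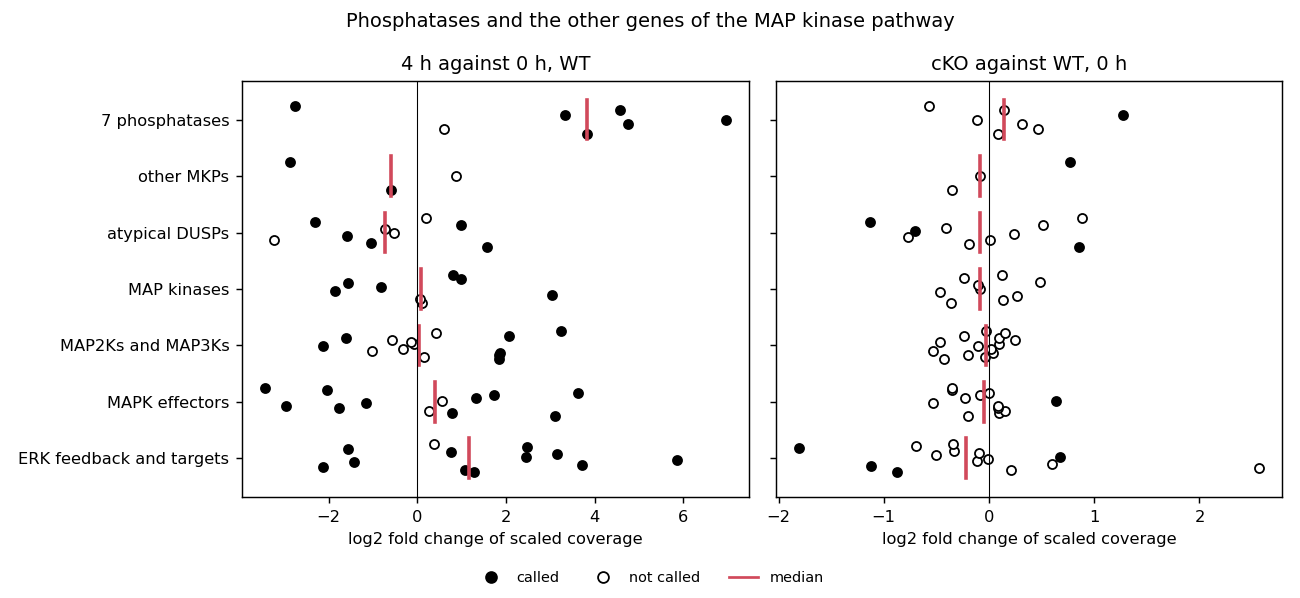
Log2 fold change of scaled coverage (horizontal axis) of each gene in the 7 phosphatases and in 6 lists of the MAP kinase pathway, for 4 h against 0 h in WT (left) and cKO against WT at 0 h (right). Filled points were called, open points were not, and red bars mark each list's median, with genes listed at 0 in both samples of a group left out; the 7 phosphatases have a median of 3.83 on the left and 0.14 on the right.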

How the data were processed

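Per the labels and the methods of the study, the authors aligned paired-end reads to mm10 (GRCm38) with HISAT2 2.2.1 and quantified RefSeq genes with StringTie 2.1.7. The deposited signal is mean coverage per base of each gene, 1 value per sample, as read from the values, since no header gives the unit. It is not scaled between samples, and the tables give no read counts, although the study's methods state a minimum number of reads per sample. Of low values, 31.4% became whole on multiplying by transcript length (tolerance 0.01), so reads were not recovered. The authors' 6 comparison columns per table (fold changes, p-values and classes) were not used, and 0 columns of per-sample values were left unmapped. The 0 h samples were taken as unstimulated from their titles, against the treatment field of the labels.

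Each sample was divided by its median-of-ratios factor. limma 3.58.1 (R 4.3.3) was run on log2(scaled coverage + 0.1) over genes with mean deposited coverage of at least 0.5, with Benjamini-Hochberg adjustment over all genes tested. Fold changes are on this scale, which understates changes of low genes. The 2 groups compared entered each fit, and all 8 samples the interaction. Alternatives were the pseudocount, filter, scaling, variance estimate, samples in the fit, replicate block, call rule and leaving out samples.

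Members and lists were chosen with earlier results of these data known. All members are named. From each pathway list at most 4 called genes are named per comparison, by size of change, and 1 such gene is not reported here. 3'UTRs came from GENCODE M21, which matched 20726 symbols, and promoters from RefSeq. Polyadenylation site use was not analysed here.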

Additional observations from a re-analysis of the deposited data

Results flagged for a closer look

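The genotype effect on Dusp16 pointed in opposite directions at the 2 times. The cKO pools were above the WT pools at 0 h, by 0.31 on the log2 scale, and below them at 4 h (-0.27), which is what drew attention to it. The interaction over all 8 samples was -0.59 (adjusted p = 0.219, limma), which does not pass at an adjusted p under 0.05. Over the settings other than leaving out a sample it was -0.59 to -0.41, with adjusted p from 0.11 to 0.356. On the deposited scale the 4 h log2 fold change was 0.022, so the opposite direction at 4 h is seen after scaling only.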

How the results depend on the processing

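The 5 rises and the fall with IFNγ/LPS kept direction and call under all alternatives run in both genotypes. Dusp4 at 0 h kept its call under all but the adjusted p under 0.05, where 0 members and 172 genes were called. Members called at 4 h were 0 as reported, 1 (Dusp4) with a coverage minimum of 5, equal total coverage, quantile normalization, an intensity trend, all 8 samples or scaling by genes with coverage of at least 100 (chosen after seeing the data), and 2 on the deposited scale, and 239 genes passed with adjusted p. At 0 h, 2 were called with quantile normalization or the scaling by well-covered genes. The interaction called 456 genes, 1182 with an intensity trend and, by fold and unadjusted p, 2592 with 2 members. Directions turned with scaling for Dusp10 at 4 h (0.26 deposited, 0.053 equal total), Dusp16 at 4 h (0.022 deposited), the response of Dusp10 in WT (-0.50 deposited, -0.45 equal total) and in cKO (-0.82, -0.86 and, by well-covered genes, -0.28) and the interaction of Dusp5 (0.12 deposited, 0.030 equal total). The cause of these shifts was not tested.

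Leaving out each sample in turn gave 0 to 1 members called at 4 h (1 without WT replicate 1) and 1 to 3 at 0 h (3 without WT replicate 2), and 216 to 596 genes in the interaction. Dusp4 at 4 h ranged from 0.48 to 1.04. Values that changed sign were Dusp5 at 4 h (-0.20 to 0.35), Dusp10 at 4 h (-0.27 to 0.21), Dusp2 at 0 h (-0.50 to 0.27), the response of Dusp10 in cKO (-0.14 to 0.34) and the interaction of Dusp5 (-0.34 to 0.21). Where this left 1 sample in a group, that sample was assumed to vary like the others. Of the single values of members, 155 kept direction and call when a sample was left out, 5 gained a call and 8 turned sign, and 409 did so under the other settings, where 10 turned sign, 14 gained a call and 1 lost it.

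The share of higher calls among all genes was 56.1% at 4 h and 83.3% on the deposited scale, 49% and 61.6% at 0 h, 47.5% and 17.8% for the response in WT and 47.2% and 20.5% in cKO. Labels give number 1 and 2 to WT and 3 and 4 to cKO at both times. Deviations of same-numbered samples from their group means correlated across genes at 0.02 in WT and in cKO. With 2 samples per group, such a value cannot decide whether same-numbered samples came from the same mice. A pairing within genotype therefore remains possible, and the replicate block was run as an alternative. With the replicate block the interaction called 27 genes, and 8430 and 8662 genes were called for the response in WT and cKO, with no change in the members called. No paired fit was possible between genotypes because they share no number. With 2 samples per group and no read counts, no counting error could be given.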
